A study of Mus musculus with 6 samples.

Results

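The endothelial identity markers are 10 genes that label the lining cells of blood vessels: Pecam1, Emcn, Esam, Egfl7, Plvap, Eng, Ptprb, Robo4, Erg and Cd34. They were chosen by name, with earlier results of these data known. All 10 were found among 21553 genes with values, and all 10 were high enough to test among 12315 tested genes. Expression was measured in kidneys of mouse embryos at E13.5, an embryonic stage, 3 homozygous for a Fat4 mutation (Fat4-/-) and 3 wildtype (Fat4+/+), with the 2 kidneys of an embryo in 1 library. All embryos came from a single pregnant female of strain C57BL6/6, backcrossed 6 times, and most of the ureter had been taken off. Which part of Fat4 is mutated is not stated in the labels, and the p-values measure the spread between littermates. The kidney as a whole was sequenced, so fewer endothelial cells and less RNA per endothelial cell cannot be told apart.

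Endothelial cells form vessels by tight contact with each other, and they carry adhesion molecules, sialomucins and receptors on their surface that most other cells lack. Transcription factors of the ETS family, Erg among them, bind DNA at a GGAA core and hold many endothelial genes active. At this stage the kidney is invaded by a capillary plexus that runs through the stroma around the nephron progenitors. Fat4 is a giant atypical cadherin, and the study addressed how its loss acts on the nephron progenitor pool.

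Levels are in cRPKM, read numbers scaled by gene length and by library size and corrected by the authors, a unit that compares between genes. Tests were made on log2(cRPKM + 1) by limma over all tested genes, with Benjamini-Hochberg adjustment and calls at an adjusted p under 0.05. The Fat4 gene (chromosome 3, 38886940 to 39011985, GRCm38) measured 16.74, 15.69 and 16.83 cRPKM in Fat4+/+ kidneys and 7.82, 7.20 and 7.49 in Fat4-/- kidneys, which separated the genotypes as labelled. The summed level of 4 Y-linked genes was 65.3 to 73.0 cRPKM over the Fat4+/+ libraries and reached 69.6 in mutant embryo 1. It was 0.08 and 0.15 in mutant embryos 2 and 3, so sex was uneven between the genotypes. Read totals are unknown, and a search of the steps between low values did not fix the relative depth. The best depth factors were 0.902 to 1.03, but for wildtype embryo 3 a distant factor explained as many genes (17 of 35).

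The promoter windows below come from the genes that the comparison turned on: the 3 markers with the smallest p-values and Cldn5, the single endothelial gene of another list that was called. Each runs from 250 bases before to 50 bases after a start site, was taken from RefSeq on GRCm38.p6, and is written in lower case on the gene's strand with each GGAA, or TTCC on the other strand, in capitals.
Emcn, chr3:137340828-137341127, plus strand: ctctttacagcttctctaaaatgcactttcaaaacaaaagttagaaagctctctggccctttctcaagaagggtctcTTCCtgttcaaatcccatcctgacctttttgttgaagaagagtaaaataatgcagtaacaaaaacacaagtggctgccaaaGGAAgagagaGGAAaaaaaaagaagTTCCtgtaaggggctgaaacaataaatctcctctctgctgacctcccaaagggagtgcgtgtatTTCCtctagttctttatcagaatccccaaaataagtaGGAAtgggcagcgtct
Egfl7, chr2:26583615-26583914, plus strand: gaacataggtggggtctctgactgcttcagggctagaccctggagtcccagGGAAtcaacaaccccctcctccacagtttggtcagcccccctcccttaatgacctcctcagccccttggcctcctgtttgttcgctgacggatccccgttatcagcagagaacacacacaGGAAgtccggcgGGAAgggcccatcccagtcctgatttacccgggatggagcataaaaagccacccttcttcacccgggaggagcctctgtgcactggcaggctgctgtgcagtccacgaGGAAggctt
Eng, chr2:32646345-32646644, plus strand: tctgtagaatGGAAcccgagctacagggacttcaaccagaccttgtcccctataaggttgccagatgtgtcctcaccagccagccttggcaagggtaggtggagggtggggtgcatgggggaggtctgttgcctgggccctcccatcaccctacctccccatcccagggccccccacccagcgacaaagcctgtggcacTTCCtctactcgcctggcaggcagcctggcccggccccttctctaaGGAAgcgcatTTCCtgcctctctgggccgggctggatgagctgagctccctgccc
Cldn5, chr16:18776597-18776896, plus strand: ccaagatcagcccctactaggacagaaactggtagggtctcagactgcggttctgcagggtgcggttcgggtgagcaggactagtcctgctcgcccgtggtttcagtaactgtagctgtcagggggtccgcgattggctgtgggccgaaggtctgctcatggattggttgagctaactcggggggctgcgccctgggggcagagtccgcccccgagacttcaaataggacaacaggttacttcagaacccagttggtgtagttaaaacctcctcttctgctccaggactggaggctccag

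The GGAA core occurred 6 times in the Emcn window, 4 times in that of Eng and 4 times in the Egfl7 window shown. The 2 other Egfl7 starts held 5 and 1. The Cldn5 window held 0. Counted on both strands, the core was present in 96.0% of all 32851 promoter windows of 300 bases, with a median count of 3. The longer ETS-like motif AGGAAG, which contains the core, was found in 35.4% of all windows. Windows were at hand for 6 of the 10 markers (Cd34, Egfl7, Emcn, Eng, Erg and Robo4), 10 in all because Egfl7 and Erg have several starts. Of these 10 windows, 7 held AGGAAG and each of the 6 genes had at least 1 such window, while windows of 1 gene are not independent. The GATA-like motif GATAA was in 4 of the 10 windows and in 25.4% of all windows, and TATAAA was in 1 of 10 and in 13.6%. These matches describe letters in a window and show no binding.

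In wildtype kidneys the 10 markers spanned a wide range of levels. Cd34, a sialomucin of endothelial and blood progenitor cells, was highest at 39.3 ± 1.73 cRPKM (SD, n = 3), above 82.3% of the tested genes. Plvap, the protein that forms the diaphragms of fenestrated capillaries, followed at 31.6 ± 2.42, and Pecam1, a homophilic adhesion receptor at endothelial junctions, at 30.8 ± 1.03. Their wildtype values overlapped, so those neighbours in the order did not differ beyond their spread. Egfl7, a secreted protein that endothelial cells lay down in their matrix, was at 28.6 ± 0.857 and lay just below Pecam1 without overlap.

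The next tier was formed by the sialomucin Emcn at 17.5 ± 0.760 cRPKM (SD, n = 3), the co-receptor Eng at 17.1 ± 0.837 and the junctional adhesion molecule Esam at 16.2 ± 0.233. Neighbours within this tier overlapped in wildtype. Robo4, an endothelial receptor of the Roundabout family, was at 8.85 ± 0.265 and Erg, the ETS transcription factor, at 5.90 ± 0.353. Ptprb, a phosphatase that acts on the Tek receptor and on endothelial junctions, was lowest at 2.14 ± 0.274, above 8.61% of the tested genes. The last 3 were separated from each other and from Esam without overlap.

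**Figure D1:**
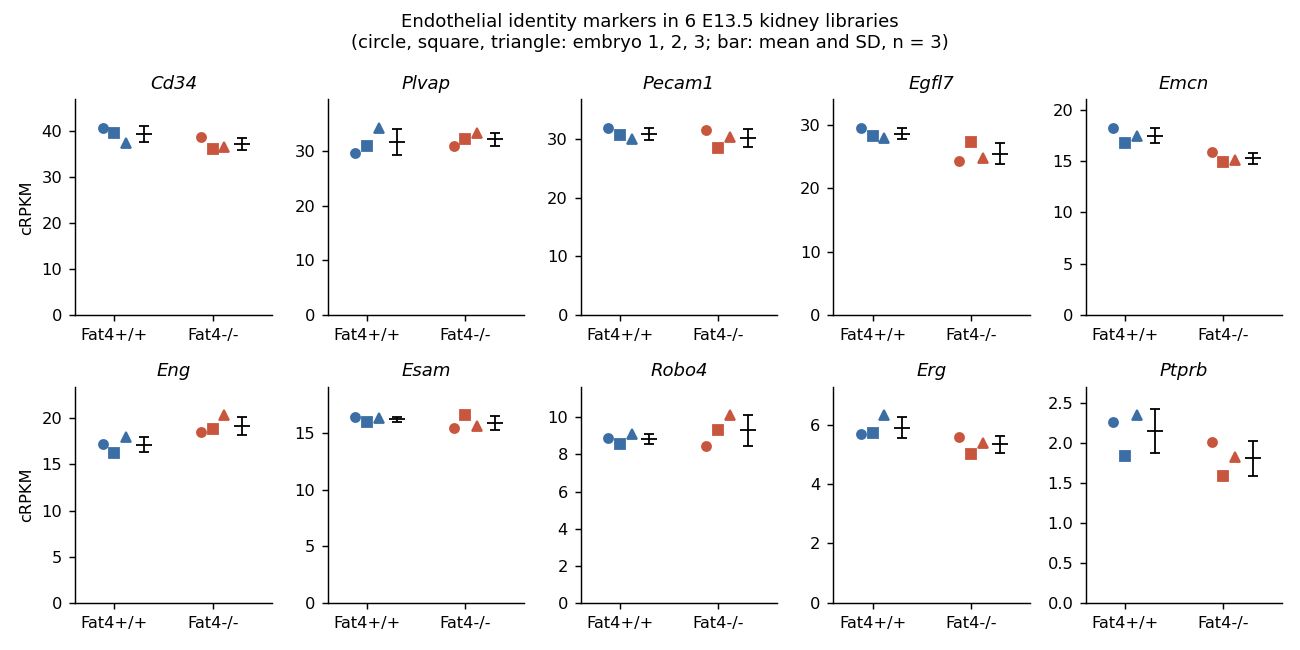
Level of each marker in cRPKM (vertical axes from 0) in the 3 Fat4+/+ and 3 Fat4-/- libraries, ordered by wildtype level, with black bars for the mean and SD of 3 embryos. Emcn, Egfl7 and Erg lie lower and Eng higher in all 3 mutant libraries, while the other 6 markers overlap between genotypes.

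None of the 10 markers was called in mutant kidneys, where 1.43% of the 12315 tested genes were (0.552% higher and 0.877% lower). At an unadjusted p under 0.05, limma gave 2 markers lower (Emcn and Egfl7) and 1 higher (Eng), against 13.0% of all tested genes (7.97% lower and 5.08% higher). The mutant and wildtype values did not overlap for 4 markers, Emcn, Egfl7 and Erg on the lower side and Eng on the higher side. The same held for 18.2% of all tested genes, 11.0% lower and 7.23% higher. The median log2 fold change was -0.05 over the markers and -0.012 over all tested genes. In all, 7 markers had a fold change below 0 and 3 above it, and 56.8% of all tested genes were below 0. The markers together summed to 201, 195 and 199 cRPKM in Fat4+/+ kidneys and 192, 190 and 194 in Fat4-/- kidneys. All 3 mutant sums lay under the lowest wildtype sum, by a small margin. The genotypes did overlap in the mean deviation of the markers from their own means on the log2 scale. That mean was -0.015 in wildtype embryo 2 and -0.008 in mutant embryo 3. The total cRPKM over all genes varied between libraries, from 473695 to 503223.

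Among the adhesion molecules and sialomucins, Pecam1 measured 31.90, 30.57 and 29.88 cRPKM in Fat4+/+ kidneys and 31.54, 28.48 and 30.34 in Fat4-/- kidneys. These values overlapped, with a log2 fold change of -0.03 (95% interval -0.14 to 0.08, adjusted p = 0.847). Esam measured 16.41, 15.96 and 16.29 cRPKM in Fat4+/+ kidneys and 15.47, 16.56 and 15.65 in Fat4-/- kidneys. It overlapped too, with mutant embryo 2 the highest of the 6 libraries and mutant embryo 1 the lowest (log2 fold change -0.03, interval -0.12 to 0.07, adjusted p = 0.837). Esam and Robo4 lie 113 kb apart on chromosome 9.

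Cd34 measured 40.78, 39.71 and 37.39 cRPKM in Fat4+/+ kidneys and 38.80, 36.23 and 36.62 in Fat4-/- kidneys. The groups overlapped through wildtype embryo 3 and mutant embryo 1, and the log2 fold change was -0.08 (interval -0.18 to 0.03, adjusted p = 0.562). Emcn (chromosome 3, 137341067 to 137432185) measured 18.27, 16.75 and 17.47 cRPKM in Fat4+/+ kidneys and 15.86, 14.88 and 15.10 in Fat4-/- kidneys. Every mutant value lay under the lowest wildtype value, and the mutant mean was 87.3% of the wildtype mean. Its log2 fold change was -0.18 (SE 0.0463, interval -0.29 to -0.08), with the smallest p of the 10 (0.00379, adjusted p = 0.112). It shares chromosome 3 with Fat4, 98329 kb away.

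Plvap, on chromosome 8, measured 29.59, 30.97 and 34.29 cRPKM in Fat4+/+ kidneys and 31.01, 32.18 and 33.35 in Fat4-/- kidneys. The mutant values fell inside the wildtype range (log2 fold change 0.03, interval -0.11 to 0.16, adjusted p = 0.897). The wildtype coefficient of variation was 7.64%, against 1.44% for Esam. The difference turned to -0.02 without wildtype embryo 1, and that of Pecam1 to 0.01 without mutant embryo 2.

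Of the receptors, Eng binds ligands of the Tgfb and Bmp family together with endothelial signalling receptors, and it is also made by some stromal cells. Eng (chromosome 2, 32646595 to 32682669) measured 17.20, 16.27 and 17.94 cRPKM in Fat4+/+ kidneys and 18.45, 18.78 and 20.29 in Fat4-/- kidneys. All mutant values were above all wildtype values, and mutant embryo 3 was highest. The mutant mean was 112% of the wildtype mean. The limma test gave a p of 0.0177 (log2 fold change 0.15, SE 0.0521, interval 0.03 to 0.27, adjusted p = 0.253). Robo4 measured 8.87, 8.58 and 9.11 cRPKM in Fat4+/+ kidneys and 8.46, 9.32 and 10.10 in Fat4-/- kidneys. Its mutant libraries lay on both sides of the wildtype range (log2 fold change 0.06, interval -0.08 to 0.20, adjusted p = 0.754).

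Ptprb measured 2.26, 1.83 and 2.34 cRPKM in Fat4+/+ kidneys and 2.01, 1.58 and 1.82 in Fat4-/- kidneys. The groups overlapped through wildtype embryo 2, and the spread was the widest of the 10, with coefficients of variation of 12.8% and 11.9%. The mutant mean was 84.1% of the wildtype mean, the lowest percentage of the 10 markers. The log2 fold change was -0.16 (interval -0.36 to 0.03, adjusted p = 0.478). With 0.1 in place of 1 added to cRPKM it was -0.24 (adjusted p = 0.486 by limma).

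The secreted protein gene Egfl7 (chromosome 2, 26580014 to 26593120) measured 29.61, 28.28 and 28.01 cRPKM in Fat4+/+ kidneys and 24.32, 27.34 and 24.85 in Fat4-/- kidneys. The groups did not overlap, although mutant embryo 2 came close to wildtype embryo 3. Its mutant mean was 89.1% of the wildtype mean. The limma test gave a p of 0.0127 (log2 fold change -0.16, SE 0.0514, interval -0.28 to -0.04, adjusted p = 0.213). Erg, the transcription factor of the set, measured 5.67, 5.73 and 6.31 cRPKM in Fat4+/+ kidneys and 5.60, 5.01 and 5.39 in Fat4-/- kidneys. Mutant embryo 1 lay just under the lowest wildtype value, so the separation was narrow (log2 fold change -0.12, interval -0.26 to 0.01, adjusted p = 0.419). Over the 10 markers the 95% intervals reached from -0.36 (Ptprb) to 0.27 (Eng).

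**Figure D2:**
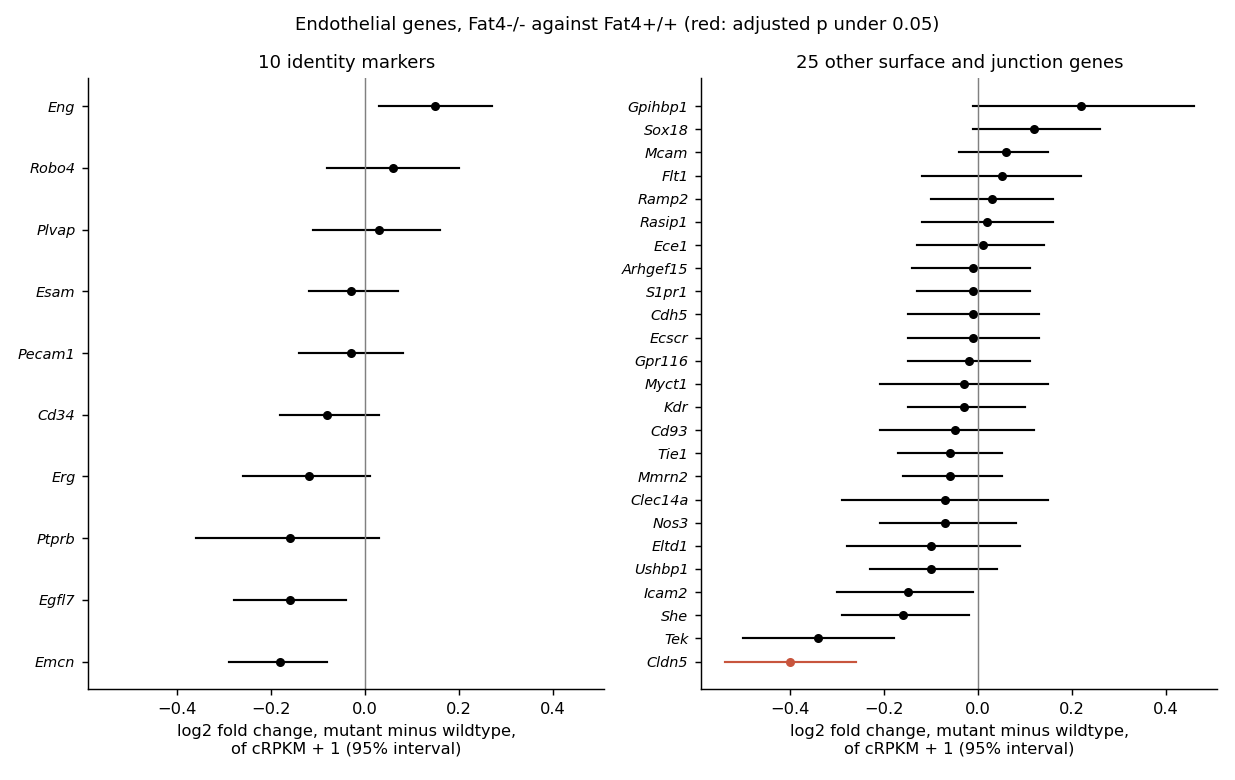
Log2 fold change of cRPKM + 1, mutant minus wildtype, with its 95% interval (horizontal axis) for the 10 identity markers (left) and 25 other endothelial genes (right), red where the adjusted p was under 0.05. The markers run from -0.18 for Emcn to 0.15 for Eng with none red, and Cldn5 at -0.40 is the single red gene on the right.

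Because a common shift would move all markers alike, each was also set against the mean of the 10 in the same library, on the log2(cRPKM + 1) scale. Relative to that mean, Eng stood at 0.13 in wildtype and 0.34 in mutant libraries, a difference of 0.21 without overlap. Emcn stood at 0.16 and 0.03, a difference of -0.13, again without overlap. The other 8 overlapped on this scale, Egfl7 and Erg included, with differences from -0.11 to 0.11. These are descriptions of markers whose values were already seen, and no test of a difference between markers was made.

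Across libraries the markers did not move as a block. Wildtype embryo 1 held the highest value of 4 markers, wildtype embryo 3 of 3, mutant embryo 3 of 2 and mutant embryo 2 of 1. Mutant embryo 2 held the lowest value of 5 markers and mutant embryo 1 of 3. The mean deviation of the 10 markers from their own means was 0.042, -0.015 and 0.052 on the log2 scale in wildtype and -0.024, -0.047 and -0.008 in mutant libraries. Pecam1, Emcn, Egfl7 and Cd34 were highest in wildtype embryo 1, Plvap, Ptprb and Erg in wildtype embryo 3, and Eng and Robo4 in mutant embryo 3.

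**Figure D3:**
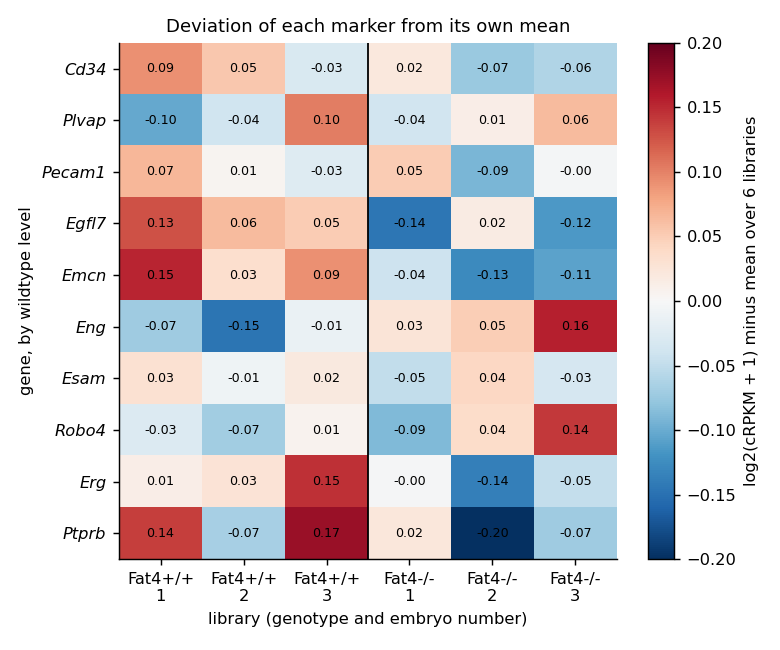
Heat map of each marker (rows, by wildtype level) in the 6 libraries (columns), coloured and labelled by log2(cRPKM + 1) minus the marker's own mean. Emcn and Egfl7 are red in the 3 wildtype columns, Eng is blue there, and no library is red or blue throughout.

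The libraries with and without Y-linked expression were compared for the markers, since mutant embryo 1 was the single mutant library with it. In that library 5 markers were below the wildtype range (Emcn, Esam, Egfl7, Robo4 and Erg), Eng was above it and 4 were within it. Of all tested genes 28.2% were below that range in this library and 17.7% above it. Egfl7 was lowest of all in mutant embryo 1, at 84.9% of the wildtype mean, and Emcn was at 90.6% and Eng at 108%. With the Y-linked score as a covariate the log2 fold change was -0.13 for Emcn, -0.23 for Egfl7 and 0.10 for Eng. None was called (adjusted p = 1.00, 0.633 and 1.00), but that fit called 0.0162% of all tested genes (2 of 12315), so the absence of calls says little about the markers. It in effect set mutant embryo 1 against the wildtype libraries.

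Of 25 tested genes in a list of other endothelial surface and junction genes, 1 was called lower and none higher. Of all tested genes 0.877% were called lower and 0.552% higher. At an unadjusted p under 0.05 in limma, 4 genes of the list were lower and none higher, against 7.97% and 5.08% of all tested genes. The list was not tested as a set. The list's median log2 fold change was -0.03, and 4 of its genes did not overlap between genotypes, all of them lower. Of all tested genes 18.2% did not overlap, 11.0% on the lower side and 7.23% on the higher side. The gene called was Cldn5, the main claudin of endothelial tight junctions (chromosome 16, 18776847 to 18778262). It measured 27.41, 23.87 and 27.67 cRPKM in Fat4+/+ kidneys and 19.07, 20.37 and 19.64 in Fat4-/- kidneys. Cldn5 fell to 74.8% of the wildtype mean (log2 fold change -0.40, SE 0.0602, adjusted p = 0.0229). Its call was lost without wildtype embryo 1 (adjusted p = 0.0609), without any 1 mutant embryo (0.0685 to 0.0901), without a filter on low values (0.0795) and with the Y-linked score (0.367). The log2 fold change itself was -0.40 without the filter and -0.44 with that score.

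Tek, the angiopoietin receptor on which Ptprb acts, measured 12.22, 10.66 and 11.13 cRPKM in Fat4+/+ kidneys and 9.17, 7.88 and 9.15 in Fat4-/- kidneys (log2 fold change -0.34, adjusted p = 0.0599). She, an adaptor gene, had a log2 fold change of -0.16 (adjusted p = 0.292). The endothelial cadherin gene Cdh5 averaged 38.4 ± 2.60 cRPKM in Fat4+/+ and 38.1 ± 2.45 in Fat4-/- kidneys (SD, n = 3). The Vegf receptor gene Kdr was at 21.9 ± 0.397 and 21.5 ± 1.50. Both overlapped between genotypes, like Pecam1 and Esam.

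Among 16 tested transcription factor genes of the endothelial and blood lineages, limma called none, against 1.43% of all tested genes (median log2 fold change -0.05). At an unadjusted p under 0.05 in limma, 1 was lower and none higher, against 7.97% and 5.08% of all tested genes. The genotypes did not overlap for 3 genes on the lower side and 1 on the higher side, against 11.0% and 7.23%. This list, too, was not tested as a set. Gata2, a zinc finger factor also used outside vessels, was at -0.36 (adjusted p = 0.0891). Foxc2, a forkhead factor, was at 0.18 (0.388). The ETS gene Fli1, the closest relative of Erg, measured 10.06, 10.35 and 9.77 cRPKM in Fat4+/+ kidneys and 9.61, 8.95 and 9.48 in Fat4-/- kidneys, without overlap (log2 fold change -0.10, adjusted p = 0.420).

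Of 13 tested arterial and tip cell genes limma called none (median 0.09). At an unadjusted p under 0.05, 3 were higher and 1 lower, against 5.08% and 7.97% of all tested genes. The genotypes did not overlap for 5 genes on the higher side and 2 on the lower side, against 7.23% and 11.0% of all tested genes. The list was not tested as a set. The 3 with the smallest p were all at higher values: Esm1 at 0.30 (adjusted p = 0.0798), Cxcr4 at 0.27 (0.0949) and Kcne3 at 0.28 (0.184). Cxcr4 is also made by other kidney cells. In this list 7 genes had a fold change above 0 and 6 below it, and among the latter Angpt2, an angiopoietin ligand of Tek, was at -0.28 without overlap (adjusted p = 0.213). Of 7 tested venous and lymphatic genes limma called none, and 2 were lower at an unadjusted p under 0.05 (median 0.01). Nrp2, a co-receptor of veins and lymphatics that nerves and stroma share, was at -0.39 (adjusted p = 0.115). The apelin receptor gene Aplnr was at -0.19 (0.183) and Nr2f2, a venous factor that stroma makes as well, at 0.09 (0.441).

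Markers of other cell types that vessels adjoin or that share Pecam1, Cd34 or Eng were read beside the endothelial ones. Of all tested genes 56.8% had a fold change below 0 and 1.43% were called. At an unadjusted p under 0.05 in limma, 7.97% of all tested genes were lower and 5.08% higher. None of the lists was tested as a set. Mural genes, those of pericytes and smooth muscle, had a median log2 fold change of -0.17, with 9 of 11 below 0, 3 lower and 1 higher at an unadjusted p under 0.05, and 1 called. This was Des, higher at 0.49 (adjusted p = 0.0119, with 0.0594 and 0.0571 without mutant embryos 2 and 3 and 0.0557 without a filter on low values). Rgs5, a pericyte gene, was at -0.25 (0.0661) and the channel gene Kcnj8 at -0.17 (0.200). Of 9 stromal genes 7 were below 0 (median -0.26), 2 were lower at an unadjusted p under 0.05 and 1 was called, Pdgfra, lower at -0.48 (0.00427), with Tcf21 at -0.26 (0.0660) and Tbx18 at -0.33 (0.428). The summed stromal level was 557 to 770 cRPKM in wildtype and 549 to 600 in mutant libraries. The summed mural level was 185 to 198 in Fat4+/+ and 193 to 199 in Fat4-/- kidneys, and without Des it was 144 to 162 and 136 to 144.

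Of 10 tested macrophage genes limma called none, with 1 higher and 1 lower at an unadjusted p under 0.05. The mannose receptor gene Mrc1 was at -0.47 (adjusted p = 0.0556), Emr1 at 0.16 (0.361) and Tyrobp at 0.25 (0.514). Their sums were 34.0 to 44.9 cRPKM in wildtype and 35.9 to 39.8 in mutant libraries. Platelet genes, 2 of 8 tested and none called or at an unadjusted p under 0.05, summed to 6.20 to 7.19 and 5.71 to 8.99, with Pf4 at -0.13 (0.804) and Itga2b at 0.06 (0.832). Of 6 tested red blood cell genes limma called none, with 1 higher at an unadjusted p under 0.05. That gene was Tfrc at 0.12 (0.330), while Alas2 was at 0.19 (0.739) and Slc4a1 at 0.15 (0.761). Tfrc measured 38.67, 40.64 and 39.55 cRPKM in Fat4+/+ kidneys, where the globin gene Hbb-y measured 916.37, 1199.25 and 585.38. The sums of the red blood cell list were 729 to 1450 in wildtype and 957 to 1500 in mutant libraries. Most of that was Hbb-y, with means of 900 and 943. No gene of these lists was at 0 in all 6 libraries. Of 10 nephron and ureteric genes 1 was called, Eya1, higher at 0.45 (0.00418), while Six2 was at 0.41 (0.0673) and Cdh1 at -0.40 (0.129). At an unadjusted p under 0.05 in limma, 2 genes of this list were higher and 3 lower. With the Y-linked score as a covariate Des, Pdgfra and Eya1 were not called (0.314, 0.183 and 0.179), while their log2 fold changes were 0.40, -0.45 and 0.43. Without wildtype embryo 2 the genes Cxcr4 (0.0480), Nrp2 (0.0318), Mrc1 (0.0351), Rgs5 (0.0416) and the smooth muscle gene Tagln (0.0479) were called. The part of these cells in the endothelial values was not tested.

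**Figure D4:**
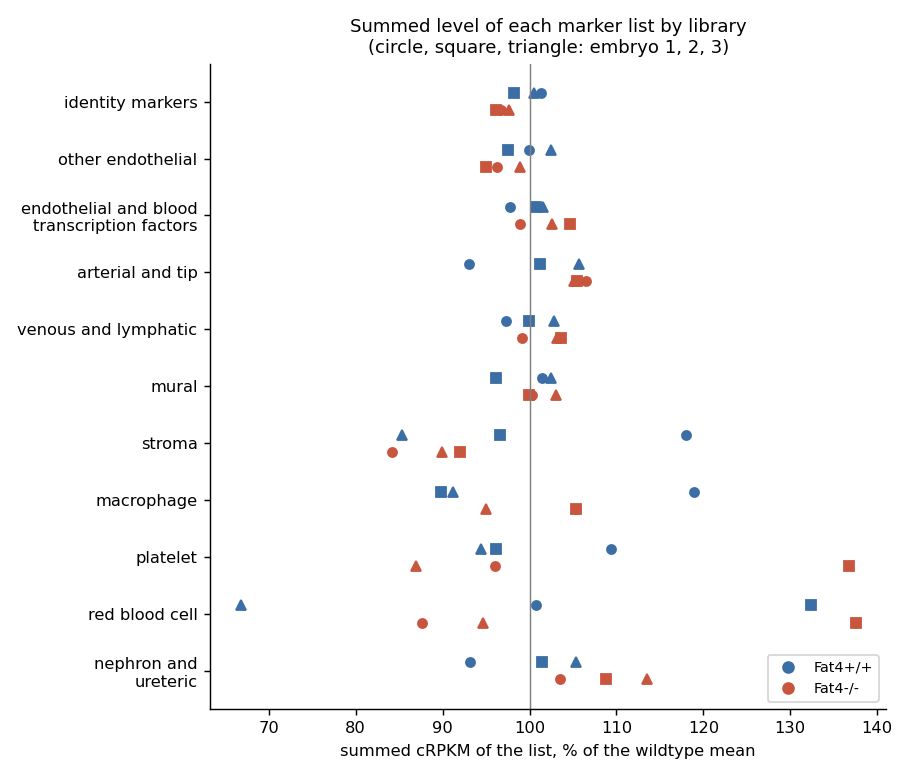
Summed cRPKM of each marker list in each library, as a percentage of the wildtype mean (horizontal axis), blue for Fat4+/+ and red for Fat4-/-. The identity markers stay between 96.1% and 101%, while the red blood cell sum runs from 66.8% to 137%.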

How the data were processed

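RNA from both kidneys of each embryo was sequenced as 1 library, per the labels. The authors deposited 1 table of RPKM in a corrected form (cRPKM), with reads trimmed per the file headers. Bowtie and mm9 are named, without versions, per the submitters' processing notes. The correction itself, and the handling of shared reads, are not described there. Of 22667 genes, 1114 held no value. Columns were matched to samples by the header text in each sample's description, and all 6 were used.

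RPKM are not counts, so log2(cRPKM + 1) was fitted with limma 3.58.1 in R 4.3.3 (moderated 2-sided test with a mean-variance trend, genotype alone in the model) where the mean over libraries reached 1 cRPKM. The fit was checked on simulated data. The 1 added to cRPKM before the log understates changes of low genes. An exact permutation test of 3 against 3 cannot go below p = 0.1. Positions came from GENCODE M21 on GRCm38 and differ from mm9. Motifs were counted on both strands.

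The members and lists were chosen with earlier results of these data known. Named genes were the members, Fat4, called genes and up to 3 genes of each list by smallest p. The 10 genes nearest in pattern were named too. Cdh5, Kdr, Tagln and Angpt2 were added after their values were seen. Mmrn2, Tie1 and Elk3, and Vwf, Lyve1, Prox1 and Etv2, which were too low to test, were also named outside this rule. Other listed genes too low to test were not named. Mcam and Sox18 belong to 2 lists each. The 13 alternatives changed the pseudocount, filter, scaling, model terms or libraries.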

Additional observations from a re-analysis of the deposited data

How the results depend on the processing

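No marker was called under any of the 13 alternatives (129 values, as Ptprb was under the filter at 5 cRPKM). In 124 of them the sign was kept. It turned for Pecam1 with the Y-linked score as a covariate (0.04) and without mutant embryo 2 (0.01), for Plvap with that score (-0.03) and without wildtype embryo 1 (-0.02), and for Robo4 with that score (-0.06). Leaving out 1 library gave -0.06 to 0.01 for Pecam1, -0.02 to 0.08 for Plvap, 0.00 to 0.12 for Robo4, -0.24 to -0.11 for Ptprb, -0.11 to -0.05 for Cd34, -0.15 to -0.08 for Erg and -0.06 to -0.01 for Esam. With the Y-linked score as a covariate the values were smaller in size for Ptprb (-0.06), Cd34 (-0.02) and Erg (-0.06). The ranges that follow are over all 13 alternatives. Emcn, Egfl7 and Eng kept their sign throughout, at -0.21 to -0.13, -0.23 to -0.13 and 0.10 to 0.19, with adjusted p from 0.0583, 0.120 and 0.112 to 1.00, 0.633 and 1.00.

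Over all genes, calls higher and lower numbered 10 and 22 without a filter, 61 lower with a filter at 5 cRPKM, 44 and 65 with each library scaled to the same sum, and 1 and 1 with the Y-linked score. Leaving out 1 library gave 7 to 53 higher and 17 to 87 lower. With the embryo number as a replicate block there were 109 and 164, with no marker among them. Of the listed genes not called without the block, Tek (adjusted p = 0.0225), Mrc1 (0.0285), Cdh1 (0.0352), Esm1 (0.0482), Nrp2 (0.0487), Six2 (0.0492) and Aplnr (0.0495) were called with it. Embryos of the same number had correlations of deviations of 0.0985, 0.205 and 0.277, and the other pairs ran from -0.373 to 0.227. Wildtype embryos 2 and 3 correlated best with the mutant embryo of their number, and wildtype embryo 1 with mutant embryo 2 (0.227). The file headers number embryos of the same number consecutively, but the labels state no pairing. Whether the number pairs them was not tested. With quantile normalisation or equal sums Tcf21 was also called (0.0331 and 0.0473). Read depth is unknown and sets no stated limit here.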

Other observations

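Several vascular genes were too low to test. Vwf, the clotting factor of mature endothelium, was at 0.780 ± 0.197 cRPKM in wildtype and 0.720 ± 0.0529 in mutant libraries (SD, n = 3). The lymphatic gene Lyve1, which some macrophages also make, was at 1.28, 1.12 and 1.00 in wildtype and 0.64, 0.75 and 0.57 in mutant libraries, without overlap. Prox1, the factor that sets lymphatic identity, was at 0.690 ± 0.145 and 0.663 ± 0.0404. Etv2, the early ETS factor that starts the endothelial lineage, was at most 0.06 in any library.

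The 10 genes whose values over the 6 libraries lay nearest to the mean pattern of the markers, by Euclidean distance on the centred log2 scale among 9583 genes, were Afg3l2, Kit, Ints2, Slc9a3r2, Tmem209, 1110037F02Rik, Phka2, Poc5, Mdm1 and Clcn4-2. Their distances ran from 0.0280 to 0.0371 and their log2 fold changes from -0.06 to -0.03. The nearest genes from the endothelial lists were Mmrn2 at rank 104, Tie1 at rank 175 and Elk3 at rank 493. The marker mean was nearly flat, so many genes with small spread lie close to it.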
